A study of Rattus norvegicus with 2 samples.

Results

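Interferon response and immunoproteasome genes were compared between the sexes in the hypothalamus of SHR rats, the spontaneously hypertensive inbred strain. The set was a fixed list of 42 genes: receptors for interferon, the transcription factors below them, sensors of viral RNA, antiviral effector genes, the inducible subunits of the proteasome and the proteins that load peptides onto MHC class I. RefSeq accessions of the array probes matched 40 of the 42 members, out of 39500 genes and unnamed transcripts on the array, and Ifnar2 and Nlrc5 matched no probe here. Where a gene had several probes, the probe with the highest mean signal over both arrays stood for it. The list goes by function, with no rule on measured values, but it was chosen with earlier results of these data known.

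Each sex was represented by 1 RNA pool of 5 SHR rats aged 9 weeks, with 100 ng of hypothalamic RNA per rat, measured on 1 single-colour (Cy3) Agilent array. Both pools were of the same strain and no drug treatment is named in the labels; the animals were killed under ether and a single operator dissected the tissue. Both arrays were on 1 slide and came from 1 scan. With 1 pool per sex there was no replicate, no test could be run, and every difference describes these 2 pools. Sex, pool and dissection cannot be told apart. In whole tissue, a larger number of cells of a type and more RNA per cell cannot be told apart either.

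Type I interferons are secreted by cells that detect viral nucleic acid. Type I interferons bind a receptor made of Ifnar1 and Ifnar2, which activates a complex containing Stat2 and Irf9 that binds interferon-stimulated response elements (ISRE) before induced genes; interferon gamma binds Ifngr1 and Ifngr2, induces Irf1 and acts at gamma-activated sequences (GAS). The induced proteins block viral entry, translation and release, and interferon also exchanges the catalytic subunits of the proteasome, so that more peptides fit MHC class I. In the brain, microglia, endothelium, meningeal cells, glia and neurons can all carry out this programme, and many of its genes have a low resting level without infection.

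Signals are given as the percentage of the 75th percentile of rat transcript spots on the same array, 2203 units for the male pool and 2254 for the female pool. Differences are male minus female on the log2 scale after this scaling, so a positive value means more signal in the male pool. The scanner software marked 71.6% and 73.0% of rat transcript spots as well above background. The median difference of the 24134 genes that passed the background on both arrays was -0.016, with 5% below -0.28 and 5% above 0.34. The technical SD of a difference was the spread of male minus female over repeat spots of 1 probe, pooled within bins of signal and given for 1 spot: 0.038 above the 75th percentile, 0.056 at log2 signals of -2 to 0, 0.11 at -4 to -2, 0.23 at -6 to -4 and 0.21 below -6. For probes with several spots it was divided by the square root of their number. It covers variation between spots within these 2 arrays. Labelling, hybridisation or scanning effects shared by all spots of an array are not in it, and neither are differences between animals. Y-linked Eif2s3y stood at 17.1% in the male and 0.326% in the female pool, where it was not well above background, as the sex labels have it. Y-linked Ddx3y was at 21.4% and 7.28%, well above background on both arrays and 2.93-fold higher in the male pool. Of 8 hypothalamic markers, 7 were well above background on both arrays, among them the neuropeptide genes Avp, Oxt, Hcrt and Pmch. These 7 also differed between the pools, with 3 positive and 4 negative differences and a median of -0.028. Hcrt stood at -0.32 and Pmch at -0.17, which is -5.78 and -6.16 times their technical SD. Sim1 was at -0.39 on a dim spot and Oxt at -0.03. Pomc was at 0.24 (6.19 times its technical SD), Agrp at 0.17 and Avp at 0.14. Their bearing on the members' differences was not tested.

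Of the 40 matched members, 38 were well above background on both arrays, Oasl was so in the female pool only, and Ifit1, which encodes a protein that binds foreign RNA, was not well above background in either pool. Of the effector genes 7, with Gbp2, Ifi35 and the immunoproteasome subunit Psmb8, were past 1.25-fold towards the male pool, and the effector genes Plscr1 and Oasl were higher in the female pool, while the receptors and most transcription factors of the pathway were close between the pools. Of the 38 members, 32 were higher in the male pool and 6 lower, against 45.0% of all genes higher. Their median difference was 0.098, against -0.016 for all genes. The differences were small: of 39 members well above background in either pool, 2 were at least 2-fold apart, against 4.21% of 26110 genes, and both were dim and higher in the female pool (1.64% of genes were). Without spots in patches the members' count was 2 of 35, and that of all genes was 162 of 23418. None of the 39 was 2-fold higher in the male pool, against 2.56% of genes, and 3 of 39 were at least 1.5-fold apart, against 6.87%. At 1.25-fold, a threshold chosen after the values were seen, 10 of 38 members (26.3%) were higher in the male pool, against 5.40% of all genes, and 1 (2.63%) was higher in the female pool against 3.81%. Ifi35 at 0.35 was just inside this threshold and Ifih1 at 0.30 just outside it. The plot of signal by pool shows the members by role.

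**Figure D1:**
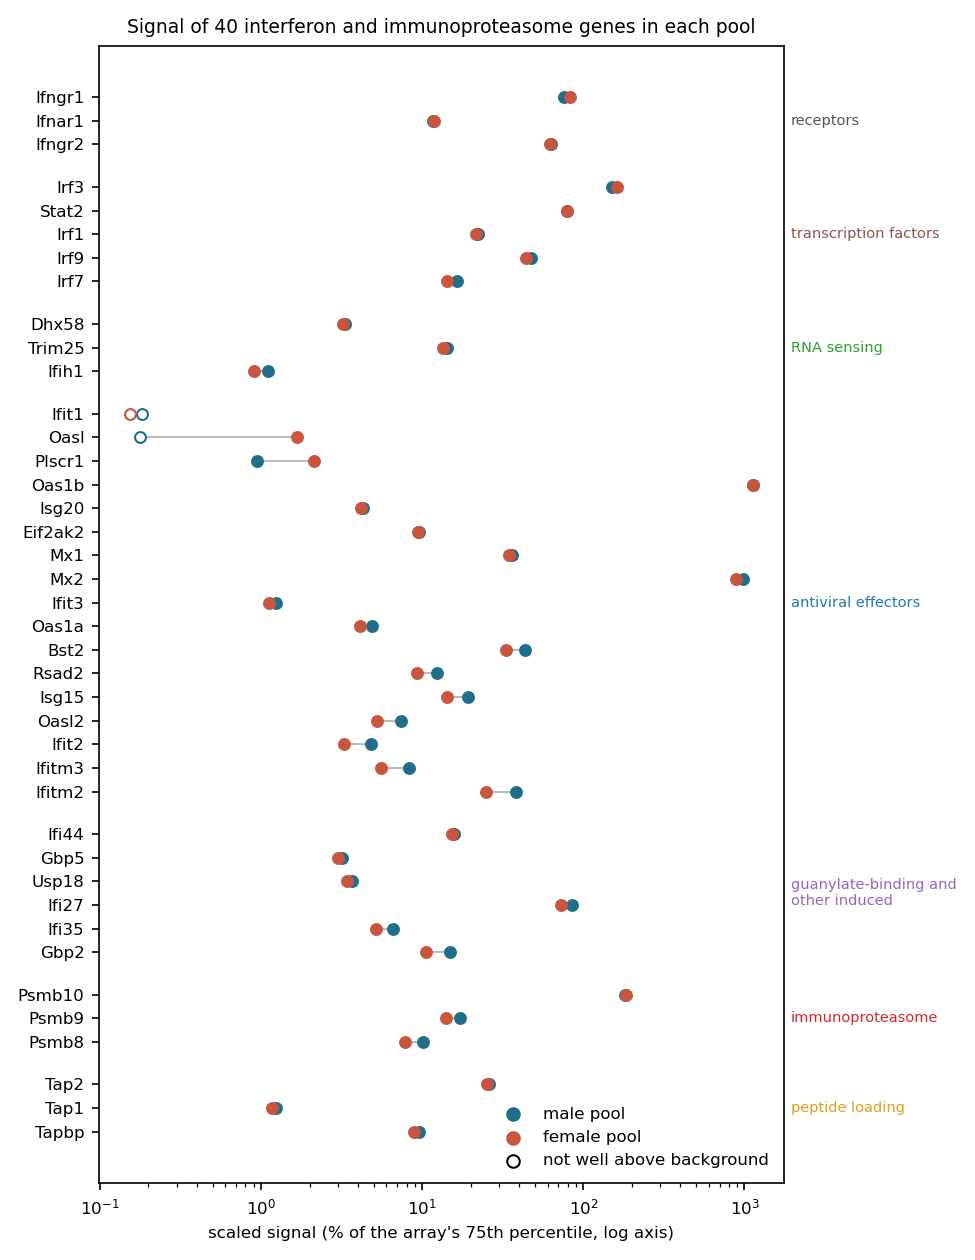
Scaled signal (% of the array's 75th percentile, log axis) of the 40 matched members in the male and the female pool, 1 array each, grouped by role; open circles mark values not well above background. The receptor and peptide-loading pairs lie nearly on top of each other, while Ifitm2, at 38.4% and 24.7%, and 9 other members are past 1.25-fold towards the male pool.

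The receptor genes were at nearly equal signal. Ifngr1, the ligand-binding chain of the interferon gamma receptor, was at 76.3% in the male and 82.2% in the female pool, a difference of -0.11 with a technical SD of 0.056. Its partner chain Ifngr2 was at 62.9% and 61.8%, a difference of 0.02 that changed sign with median centring. Ifnar1, a chain of the type I receptor, was at 11.7% and 11.8%, with a difference of -0.01 that was positive with normexp background correction.

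Among the transcription factors, Irf7 and Irf3 lay at opposite ends. Irf7, which is itself induced by interferon and switches on interferon genes, was at 16.5% and 14.3%, a difference of 0.21 and 1.94 times its technical SD. The spot of Irf7 lay in a patch of the slide, defined as a spot with 2 or more 2-fold different spots of other probes, all in 1 direction, among its 18 nearest measured neighbours; here 3 neighbours were 2-fold higher in the male pool. Irf3, the constitutive factor that starts the interferon genes, was lower in the male pool on each of 9 repeat spots. These spots ran from 143% to 158% in the male and from 155% to 166% in the female pool, so the ranges overlapped slightly while each spot's own difference lay between -0.14 and -0.06. Their mean difference was -0.10 with a technical SD of 0.013, and a second, dimmer Irf3 probe stood at 0.03. Stat2, a part of the complex that binds the ISRE, was at 79.2% and 79.3%. Irf9, the DNA-binding part of the same complex, was at 47.3% and 44.3%, and Irf1, the factor induced by interferon gamma, was at 22.2% and 21.5%. The differences of Irf9 and Irf1 were 0.09 and 0.05. The Irf9 spot lay in a patch with 2 neighbours 2-fold higher in the female pool, and a dimmer Irf9 probe outside patches stood at 0.07.

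The 3 members that sense or relay viral RNA were slightly higher in the male pool and within 2 technical SD. Ifih1, the sensor of long double-stranded RNA, was dim at 1.11% and 0.901%, a difference of 0.30 with a technical SD of 0.21. Its regulator Dhx58 was at 3.32% and 3.22%, on a spot in a patch. Trim25, the ubiquitin ligase that activates the sensor RIG-I, was at 14.3% and 13.5%, a difference of 0.08, and its dimmer second probe was at 0.12.

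Of the 17 antiviral effector genes, 15 were measured on both arrays, of which 14 were higher in the male pool and 1 lower, with a median difference of 0.24. The widest difference towards the male pool among all members, with normexp too, was in Ifitm2 (NM_030833), which encodes a membrane protein that hinders fusion of viruses with the cell. Over 9 repeat spots it ranged from 37.5% to 39.9% in the male and from 23.2% to 26.2% in the female pool. The ranges were apart, and each spot's difference lay between 0.55 and 0.75. The mean difference was 0.63 (1.55-fold) with a technical SD of 0.019, and 0.403% of genes of similar signal differed as much or more towards the male pool. Ifitm3 (NM_001136124), a gene of the same family with 1 coding gene between them, was at 8.03% and 8.54% on its 2 spots in the male pool and at 5.40% and 5.67% in the female pool. Both ranges were apart; the difference was 0.58, and 0.39 with normexp. Bst2 (NM_198134), which encodes tetherin and holds budding virus at the cell surface, was at 42.8% and 43.9% in the male and 32.5% and 33.4% in the female pool. Both spots of Bst2 were higher in the male pool by 0.40 (1.32-fold), 10.1 times the technical SD of 0.039.

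**Figure D2:**
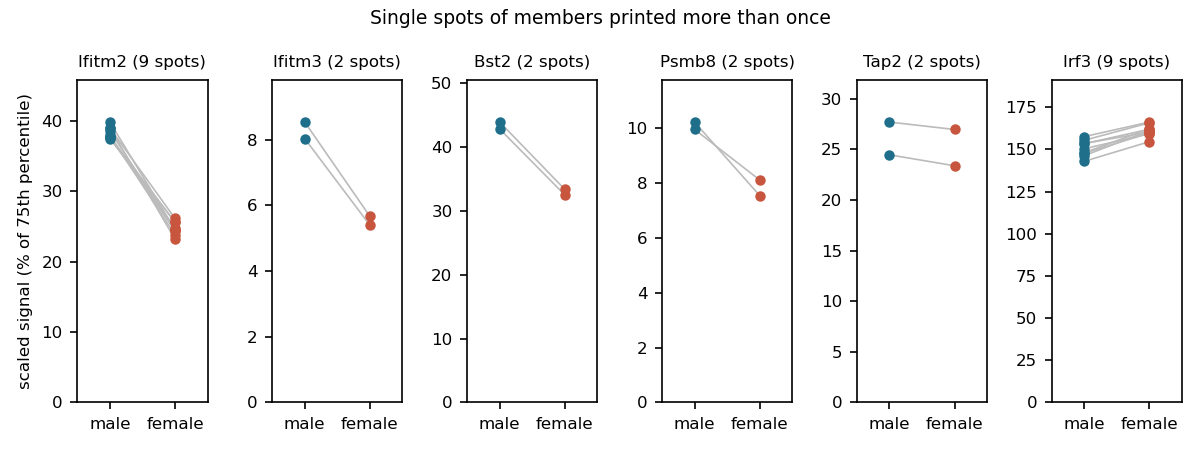
Scaled signal (% of the array's 75th percentile, axes from 0) of each unflagged spot of the 6 members whose probe was printed more than once; a line joins the same spot position on the male and the female array, and spots are repeat measurements of 1 pool, not replicates. Ifitm2 (9 spots), Ifitm3, Bst2 and Psmb8 (2 spots each) are higher in the male pool at every spot, Tap2 by less, and Irf3 (9 spots) is lower at every spot.

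Further effector genes were higher in the male pool on single spots. Isg15 (NM_001106700), which encodes a ubiquitin-like protein that is joined to other proteins after induction, was at 19.2% in the male and 14.3% in the female pool, a difference of 0.43 (1.35-fold) with a technical SD of 0.11. Rsad2, which encodes the antiviral enzyme viperin, was at 12.3% and 9.29%, a difference of 0.41; its second probe was not well above background in either pool. Oasl2, a relative of the oligoadenylate synthetases that activate RNA decay, was at 7.42% and 5.21%, a difference of 0.51. These 3 were above the 95th percentile of all genes. Among genes of similar signal, 2.78% differed as much towards the male pool for Isg15, 2.94% for Rsad2 and 5.37% for Oasl2. The technical SD of Oasl2 was 0.23. Ifit2, another RNA-binding effector, was at 4.83% and 3.26%, a difference of 0.56 with a technical SD of 0.23. The Ifit2 spot lay in a patch with 4 neighbours 2-fold higher in the male pool, and the gene had no spot elsewhere. With normexp Ifit2 was at 0.33, Oasl2 at 0.34, Isg15 at 0.36 and Rsad2 at 0.38.

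The other effector genes measured on both arrays, apart from Plscr1, were less than 1.25-fold apart. Ifit3 was at 1.24% and 1.12%, a difference of 0.14 within its technical SD of 0.21. Oas1a, a synthetase of the RNA decay pathway, was at 4.87% and 4.11%, a difference of 0.24, with 0.52 on its dimmer second probe and 0.38 as the mean over both probes. Oas1b was at 1125% in both pools, with a difference of 0.00 that changed sign between scalings. Mx2, a dynamin-like GTPase, was at 973% and 889%, a difference of 0.13 that was 3.39 times its technical SD; 3.94% of genes of similar signal differed as much towards the male pool. Its relative Mx1 was at 36.2% and 34.6%. The nuclease gene Isg20 was at 4.28% and 4.19%, and its sign changed between scalings. The RNA-dependent kinase gene Eif2ak2 was at 9.57% and 9.35%, a difference of 0.03, but at -0.22 on its dimmer probe.

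Both members at least 2-fold apart were higher in the female pool and dim. Plscr1, which encodes a phospholipid scramblase, was at 0.945% in the male and 2.14% in the female pool, a difference of -1.18 (2.26-fold), and of -0.33 with normexp. Oasl, a second relative of the oligoadenylate synthetases, was at 1.68% in the female pool and at 0.176%, not well above background, in the male pool. With the male value raised to the floor of that array, the lowest signal of any probe well above background (0.686%), the female pool exceeded the male pool at least 2.45-fold for Oasl, a bound of -1.29 that became -0.41 with normexp. Each rests on 1 spot outside patches, with 1 neighbour 2-fold higher in the male pool for Plscr1 and 1 in each direction for Oasl. Oasl and Oasl2 are adjacent coding genes and stood on opposite sides of 0.

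All 6 guanylate-binding and other induced genes had the higher signal in the male pool (median 0.17). Gbp2 (NM_133624), a GTPase that attacks membranes of intracellular microbes, was at 14.8% in the male and 10.5% in the female pool, a difference of 0.50 (1.41-fold) and 4.56 times its technical SD. Its relative Gbp5 was at 3.18% and 3.02%, a difference of 0.08. Ifi27 was at 85.5% and 72.4%, a difference of 0.24 that was 4.31 times its technical SD; 2.30% of genes of similar signal differed as much. Ifi35 was at 6.57% and 5.16%, a difference of 0.35 with a technical SD of 0.23, and 0.22 with normexp. For Ifi35, 8.71% of genes of similar signal differed as much towards the male pool. Ifi44 was at 15.7% and 15.2%, a difference of 0.05, with 0.22 on its second probe. Usp18, which removes Isg15 from proteins and damps the type I receptor, was at 3.66% and 3.41%, a difference of 0.10.

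**Figure D3:**
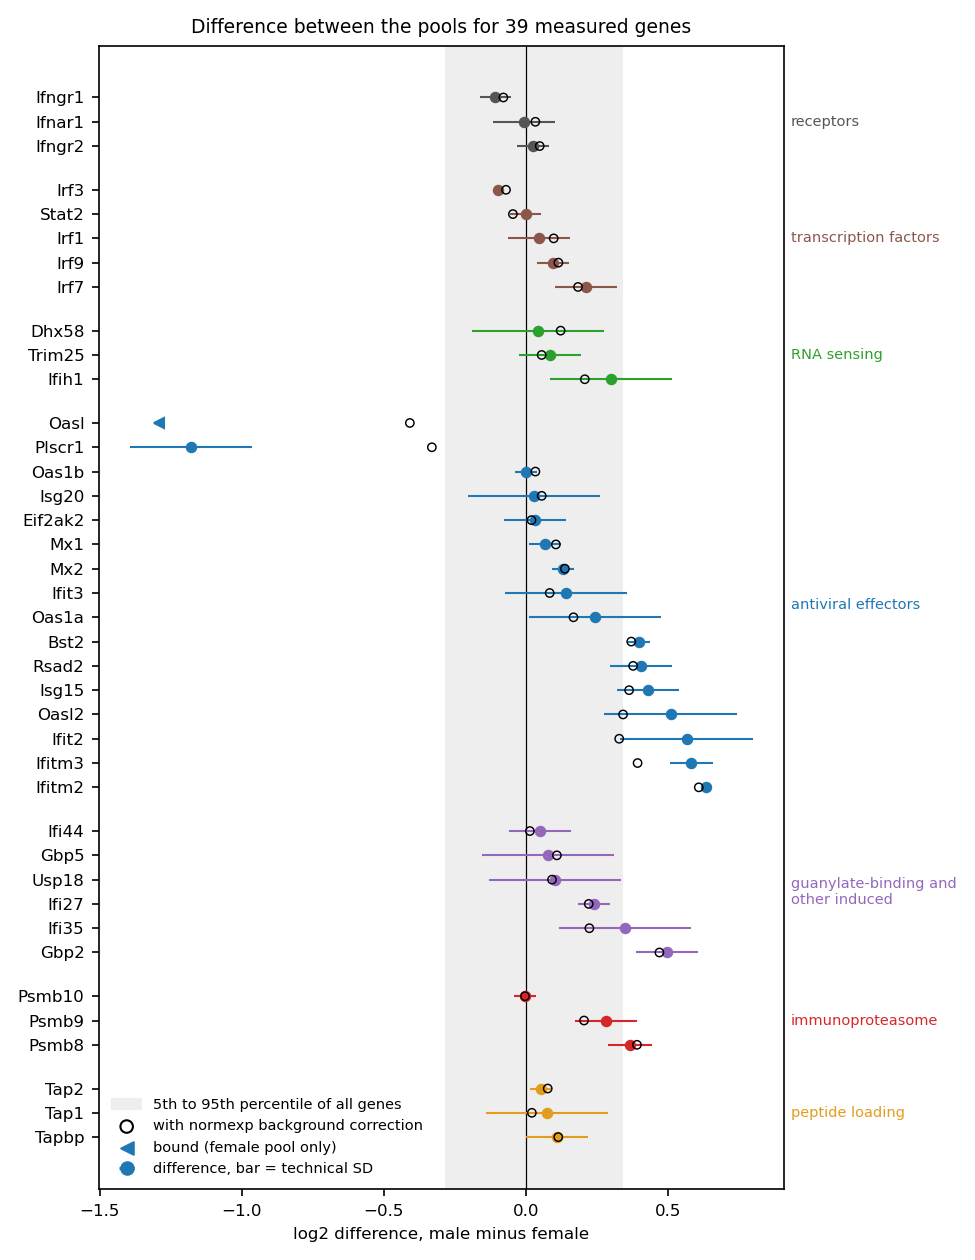
Difference between the pools (log2, male minus female) for the 39 measured members by role, with bars of 1 technical SD (none for the bound of Oasl, marked by a triangle), open circles for the value with normexp background correction, and the 5th to 95th percentile of all genes (-0.28 to 0.34) shaded. Members past the right edge of the shading, 10 in number, are effector genes, Gbp2, Ifi35 and Psmb8; Oasl and Plscr1 lie far to the left and move most with normexp.

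The inducible proteasome subunits were not alike. Psmb8 (NM_080767), which replaces the constitutive subunit Psmb5, was at 9.95% and 10.2% on its 2 spots in the male pool and at 8.10% and 7.54% in the female pool. The ranges were apart, and the difference was 0.37 (1.29-fold) with a technical SD of 0.077. Psmb9, which replaces Psmb6, was at 17.1% and 14.1%, a difference of 0.28 (0.20 with normexp), on a spot in a patch with 3 neighbours 2-fold higher in the male pool. Psmb10, which replaces Psmb7, was at 182% and 183%, a difference of -0.004. The constitutive subunits Psmb5, Psmb6 and Psmb7 were at -0.03, -0.004 and -0.02. The difference of Psmb8 thus exceeded that of Psmb5 by 0.39 and that of Psmb9 exceeded that of Psmb6 by 0.28, while Psmb10 and Psmb7 were 0.02 apart. Psme1 and Psme2, which encode the interferon-inducible activator of the proteasome, were measured on 10 spots each and stood at 0.03 and 0.008.

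The peptide-loading genes were close between the pools. Tap1 and Tap2 encode the partner chains of the transporter that brings peptides to MHC class I. Tap1 was dim at 1.23% and 1.17%, a difference of 0.07 with a technical SD of 0.21. Its second probe was not well above background in either pool. Tap2 was at 26.0% and 25.1%, a difference of 0.05. Both spots of Tap2 lay in patches. Tapbp, which encodes tapasin and holds the transporter to MHC class I, was at 9.52% and 8.84%, a difference of 0.11. Tap2, Psmb8, Tap1 and Psmb9 are consecutive coding genes on chromosome 20, at 0.05, 0.37, 0.07 and 0.28 in that order. Tap1 was dim and the spots of Tap2 and Psmb9 lay in patches, so these values do not resolve an alternation. The promoter windows of Tap1 and Psmb9, which are read in opposite directions, share 44 bases.

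Promoter sequence was examined because the members are known for a shared response element. RefSeq promoters of assembly GRCr8 (250 bases before to 50 after the gene start, from the BN strain and not SHR) were at hand for 35 members; Isg15, Mx2, Ifit1, Ifit2, Dhx58, Usp18 and Nlrc5 had no entry. The ISRE core was searched as GAAA, any 2 bases and GAAA, and as its reverse complement (TTTC, any 2 bases, TTTC), and the GAS as TTC, any 3 bases and GAA, which reads the same on both strands. An ISRE core was present in 21 of 35 member promoters (60.0%), against 3.92% of 33469 promoters of the same length, and a GAS in 8 of 35 (22.9%) against 8.87%. The windows below show the match in capitals for 6 of the members past 1.25-fold towards the male pool. The windows of Tap1 (measured on a dim spot) and Psmb10, which were close between the pools, follow. All are given 5′ to 3′ on the strand of the gene and end at or before the gene start.
Ifitm2, chr1:205482349-205482406, minus strand: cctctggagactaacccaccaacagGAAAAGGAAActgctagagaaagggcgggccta
Ifitm3, chr1:205541768-205541827, minus strand: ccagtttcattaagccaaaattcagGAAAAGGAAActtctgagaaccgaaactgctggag
Bst2, chr16:18255058-18255123, minus strand: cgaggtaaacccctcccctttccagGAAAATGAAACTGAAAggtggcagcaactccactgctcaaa
Rsad2, chr6:48788233-48788292, minus strand: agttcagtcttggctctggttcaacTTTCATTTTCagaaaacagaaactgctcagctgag
Gbp2, chr2:234005671-234005726, plus strand: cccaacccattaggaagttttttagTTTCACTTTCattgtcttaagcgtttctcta
Oasl2, chr12:47383302-47383361, minus strand: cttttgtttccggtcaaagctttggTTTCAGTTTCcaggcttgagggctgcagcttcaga
Tap1, chr20:4668630-4668689, minus strand: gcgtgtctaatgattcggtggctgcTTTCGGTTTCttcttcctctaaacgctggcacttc
Psmb10, chr19:50743331-50743390, minus strand: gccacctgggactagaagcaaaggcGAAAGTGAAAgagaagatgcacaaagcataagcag

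Ifitm2 and Ifitm3 hold the same 10 matched letters, 33 to 24 and 44 to 35 bases before their starts, and differed by 0.63 and 0.58. Ifi27, at 0.24, holds the same 10 letters 169 to 160 bases before its start. The Bst2 window holds 2 overlapping matches, and a GAS match overlaps the first of them. Psmb10 has a second ISRE core 17 to 8 bases before its start, and the core of Psmb8 spans its gene start and is not printed. Members with an ISRE core had a median difference of 0.21 (20 higher and 1 lower of 21 on both arrays). Those without a core had a median of 0.03 (7 higher and 5 lower of 12). The group without a core holds every receptor gene and most transcription factors of the list, so motif and role cannot be told apart. For the GAS, the medians were 0.24 with a match (7 higher and 0 lower of 7) and 0.07 without one (20 higher and 6 lower of 26). Of these 7, Oas1b was higher by only 0.0004. Only Irf1, at 0.05, and Irf9, at 0.09, had a GAS and no ISRE core, so GAS and ISRE core cannot be told apart either. Of the members past 1.25-fold towards the male pool, 7 had a core, Ifi35 had none, and Isg15 and Ifit2 had no promoter entry. The differences of members with a core ran from -0.004 in Psmb10 to 0.63 in Ifitm2, so a match went with both equal and unequal signal. A match describes the letters of this window and not binding.

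The members' differences were set against genes of similar signal, because dim genes spread more. At log2 signals of -2 to 0, 2 of 9 members were past 1.25-fold towards the male pool against 1.27% of all genes. At -4 to -2 these were 5 of 13 members against 3.86%, and at -6 to -4 they were 3 of 8 against 9.87%. None of 4 members above the 75th percentile and none of 4 below -6 reached it, against 0.323% and 17.1% of all genes. Beyond 2 technical SD, 12 of 38 members (31.6%) were higher in the male pool and 2 (5.26%) were lower, against 9.83% and 12.3% of all genes. The 12 were Ifitm2, Bst2, Ifitm3, Psmb8, Gbp2, Ifi27, Isg15, Rsad2, Mx2, Psmb9, Ifit2 and Oasl2, and the 2 were Irf3 and Plscr1.

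**Figure D4:**
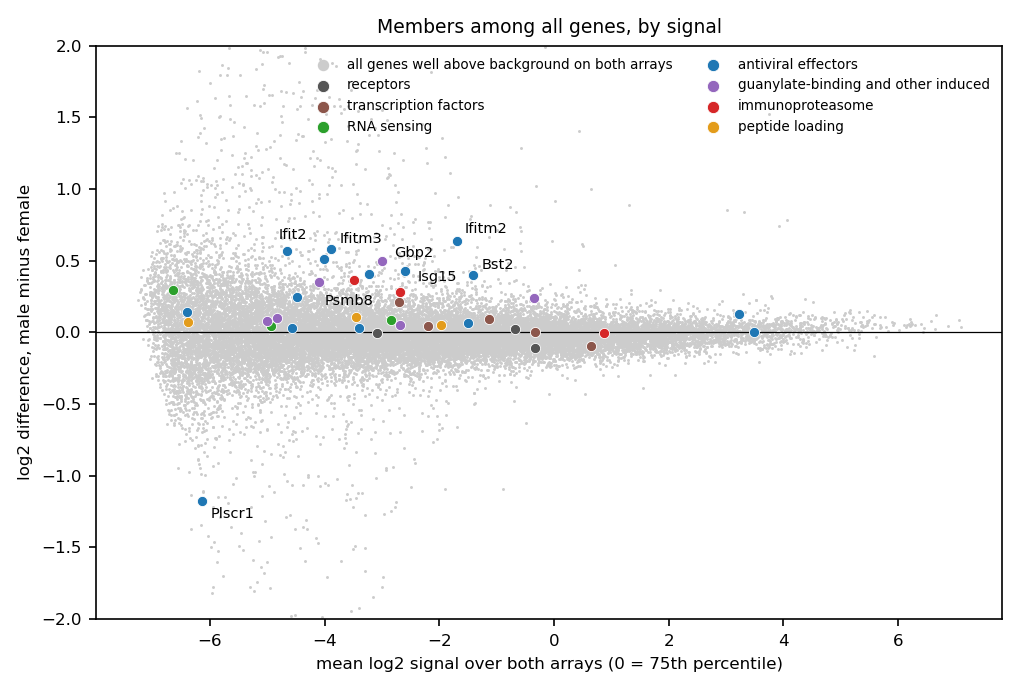
Difference between the pools (log2, male minus female) against mean log2 signal over both arrays (0 is the 75th percentile) for the 24134 genes well above background on both arrays in grey and for 38 members coloured by role; 144 genes lie outside the plotted range. The spread of grey points widens towards low signal, Ifitm2, Bst2 and Gbp2 sit above the bulk at their signal, and Plscr1 sits low at the dim end.

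Other genes of the pathway, taken from lists by role, were more evenly divided. Of 100 such genes 80 matched a probe and 65 were well above background on both arrays, with 37 higher and 28 lower in the male pool and a median of 0.026, whose sign changed with median centring and quantile normalization. Of these 65, 3 (4.62%) were past 1.25-fold towards the male pool and 2 (3.08%) towards the female pool. Genes induced by interferon had 21 higher and 7 lower (median 0.094). Ifitm1, the third member of the Ifitm family, was at 8.15% in the male and 4.18% in the female pool over 10 spots, a difference of 0.97 (1.95-fold), of 0.98 on its 8 spots outside patches and of 0.67 with normexp. Epsti1 was at -0.42 on a dim spot. Signalling genes had 5 higher and 9 lower (median -0.068): Socs3, a feedback inhibitor of cytokine receptors, was at 0.32 over 8 spots, and Pias1, which encodes a SUMO ligase, was at -0.52 on a dim spot. Among sensing genes (6 higher, 2 lower, median 0.051), the RNA sensor gene Tlr7 passed the background in the male pool alone, at 1.35% against 0.368%, a bound of at least 2.36-fold on a spot in a patch (0.36 on the log2 scale with normexp). Peptide-processing genes had 4 higher and 9 lower (median -0.024), with Psme3 at -0.14 and B2m, the light chain of MHC class I, at 0.08.

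Interferon genes themselves were barely measured. Of 10 listed, 5 matched a probe, and Ifng was not well above background in either pool. Ifna4 was at 4.88% in both pools, and Ifnk at 2.91% and 2.61%. Ifna5 passed the background in the female pool alone, at 0.786% and 0.778%, and gave no fold. Ifnb1 was at 0.149% in the male pool, not well above background, and at 3.85% in the female pool, at least 5.60-fold higher there, on its single spot in a patch and at a bound of -1.15 with normexp.

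Markers of several cell types also differed between the pools, and their part in the members' differences was not tested. All 8 meningeal fibroblast markers had the higher signal in the male pool. Their median difference was 1.25 with a summed signal of 235% against 94.8%. All 5 red blood cell markers were higher, with a median of 0.84 and sums of 2357% and 1369%. Of 11 microglia and macrophage markers 10 were measured and 9 were higher, with a median of 0.11, sums of 838% and 771%, and Mrc1 not well above background. Of 8 endothelial markers 5 were higher (median 0.074, sums of 438% and 405%). Of 8 markers of T and NK cells, Cd3e, Cd2, Cd8a, Prf1 and Gzmb were not well above background in either pool. Sums over the 8 were 14.5% and 12.2%. Cd3d was at 0.04 and Lck at -0.27 on a dim spot, while Nkg7 was at 1.16, but at 0.09 on its spot outside a patch. Neither matched dendritic cell marker, Xcr1 or Clec9a, was well above background. Of 5 choroid plexus markers, the 3 on both arrays were higher (median 0.25, sums over all 5 of 85.6% and 71.5%). Kcnj13, well above background in the male pool alone, had a bound of 1.93 (0.64 with normexp). Kl, well above background in the female pool alone, had a bound of -0.19 (-0.14 with normexp). Astrocyte markers had 5 of 5 higher (median 0.093), oligodendrocyte markers 5 of 5 (median 0.14), and neuronal markers 1 higher and 5 lower (median -0.045).

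**Figure D5:**
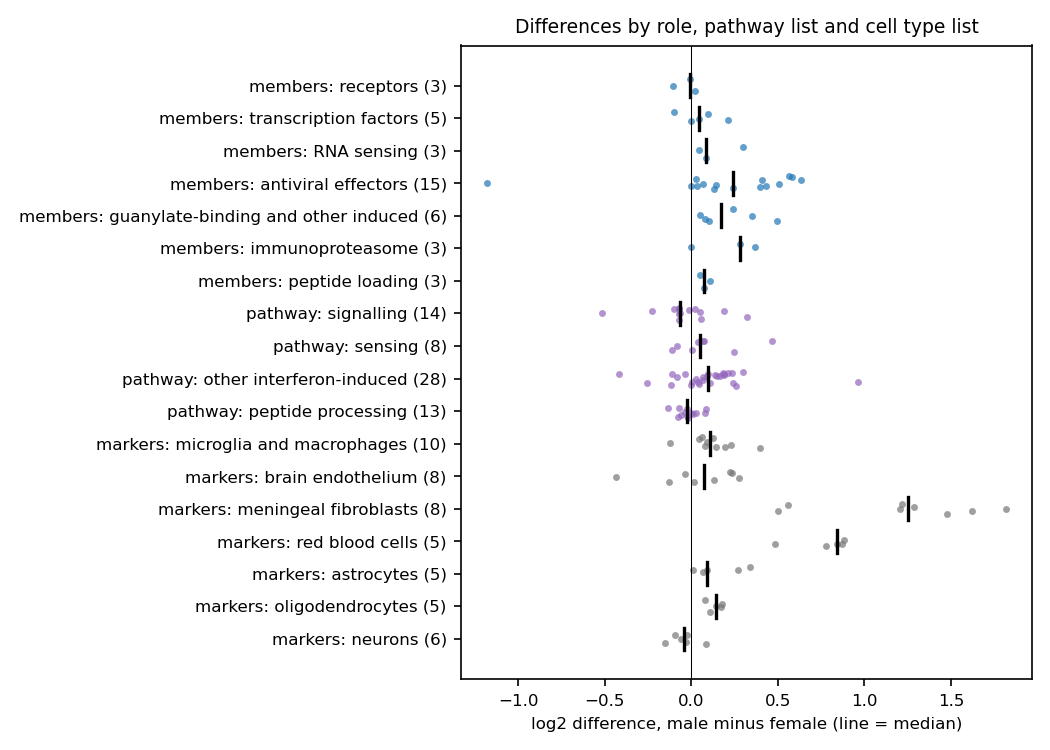
Difference between the pools (log2, male minus female) of each gene well above background on both arrays, by role of the members (blue), pathway list (purple) and cell type list (grey), with the number of genes in brackets and a line at the median. Antiviral effectors have a median of 0.24, receptors lie at -0.01, and meningeal fibroblast markers stand furthest right at 1.25. The immunoproteasome median of 0.28, over 3 subunits, is the value of Psmb9, whose spot lay in a patch.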

How the data were processed

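The deposited array files hold spot intensity values; per the file headers they came from Feature Extraction 11.5.1.1 (protocol GE1_1105_Oct12, design build rn4), background-subtracted by that software and not scaled across arrays, whereas the submitters' processing notes name version 9.1. Other values used from the deposited files were the software's 0 or 1 spot flags. The deposited series matrix intensity was the processed signal as a percentage of its 75th percentile (ratio of the 2 0.996 to 1.004).

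Of 58717 rat transcript spots, 664 with an outlier flag were left out and none was saturated. The log2 of each signal minus that of its array's 75th percentile was averaged over the spots of a probe, which passed the background where over 50% of them carried the software's mark for it. Symbols came from RefSeq accessions (assembly GRCr8, names and order only); 21106 of 45591 probes matched. Probe sequences were not analysed here, so cross-hybridisation within the Ifitm, Oas, Mx, Ifit and Gbp families was not examined. The array number limits the precision.

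The members and lists were chosen with earlier results of these data known. All members are named; from the other pathway lists, genes past 2-fold are named, or else the 2 that differed most; Psme1, Psme2, Psmb5 to Psmb7 and further interferon genes were added, some after their values were seen. A fold of 1.25 was also chosen after the values were seen. Alternatives were normexp (limma 3.58.1, offset 50, run on median spot signal), median centring, quantile normalization, the mean over probes, 2 filters on dim probes, leaving out patches, the series matrix and a 1.5-fold threshold. The calculation of the difference was run on simulated arrays (numpy 2.4.6, pandas 2.3.3). Only brighter genes were given a difference there, always past 2-fold, so the run does not cover the smaller differences or the dim genes described here.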

Additional observations from a re-analysis of the deposited data

How the results depend on the processing

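The members' median difference stayed between 0.068 (median centring) and 0.11 (normexp) in the 8 alternatives. Of these, the 2 filters on dim probes and the series matrix reuse the same signals, so they could hardly move it (0.098 in each). Members higher in the male pool were 33 of 38 with normexp, 29 of 38 with median centring and 28 of 34 without patches. Over all genes, 12915 of 24134, 8492 of 24134 and 9854 of 22189 were higher, in that order. The main setting had 10850 of 24134. Of the 38 members on both arrays, 28 were positive and 5 negative in every setting that gave them a value (Irf7, Ifit2, Dhx58 and Psmb9 had none without patches), and 5 (Ifnar1, Ifngr2, Isg20, Oas1b and Eif2ak2) changed sign. The 10 members past 1.25-fold towards the male pool included 9 that remained so with normexp, median centring or quantile normalization, all but Ifi35, and 9 without patches, where Ifit2 had no spot; with the mean over probes Oas1a joined them. The count of members at least 2-fold apart, 2, was 0 with normexp and 1 among genes well above background on both arrays. For the other pathway genes the count of 2 was 1 with normexp, 0 among genes well above background on both arrays and 0 without patches. Over all genes the count of 1098 was 495 with normexp, 428 among genes well above background on both arrays, 2665 with no filter, 162 without patches and 1794 at 1.5-fold. The offset added by normexp shrinks differences of dim genes by construction. Signal over background limits Oasl, Plscr1, Ifit1, Ifit3, Ifih1 and Tap1 most. No replicate could be left out and no paired analysis was possible because each sex was 1 pool.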
